A study of Mus musculus with 8 samples.

Results

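The transcripts of 8 skin antimicrobial peptide and protein genes were followed in dorsal skin of Balb/c mice. They were the beta-defensin genes Defb1, Defb3, Defb4 and Defb6, the cathelicidin gene Camp, the protease inhibitor gene Slpi, the lipocalin gene Lcn2 and the lectin gene Reg3g. A probe set was counted for a gene where the probe annotation paired it with that symbol alone, which gave 9 probe sets, with 2 for Defb1 and 1 for each of the others. The whole array held 18193 genes with such a probe set, and 12420 of them passed a filter on low signal. Of the 8 genes, 6 passed it. Defb4 and Reg3g did not, and their values are given without a test.

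Antimicrobial peptides are small, mostly cationic proteins by which epithelia and phagocytes kill bacteria or withhold nutrients from them. In skin, keratinocytes make some of them constantly, while injury, microbial products and cytokines such as those of the interleukin 17 and interleukin 1 families induce others. Neutrophils carry several of the same proteins in their granules. In human atopic dermatitis, type 2 cytokines are known to hold down the induction of some of these peptides in keratinocytes.

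Skin was collected in 3 groups. The first received 1-chloro-2,4-dinitrobenzene (DNCB), a hapten that sensitises skin, for 15 days, with a gel of 5% HY209 in PEG over the last 7 days (DNCB+HY209, n = 3). The second received DNCB for the same 15 days with vehicle over the last 7 days (DNCB, n = 3). The third was sham skin, labelled as having had neither agent (n = 2). HY209 is a code name for a compound reported to activate GPCR19, a bile acid receptor. All mice were of the Balb/c strain, and the ages and sexes are not given in the sources used here. Titles and source names define the sham group, although its protocol fields carry the wording of the DNCB model, a limit that bears on each comparison with sham. Each sample was measured on 1 Affymetrix array. Whether each array of a group holds RNA of a different mouse is not stated, so p-values cover only the spread between these samples, which may be technical.

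Values are log2 signals as deposited, and the median of an array lay between 4.07 and 4.22. Differences that involve signals below that median are approximate. Over all probe sets, the Pearson correlation of log2 signals was 0.965 to 0.987 within groups and 0.92 to 0.987 between groups. Among the columns, 0 pairs were identical. The arrays differed in the bacterial spike-in controls for hybridization (BioB, BioC and BioDn). The mean log2 signal of these controls over 7 probe sets ran from 9.25 on DNCB array 2 to 11.62 on sham array 2. The linear ratio of the 3' to the 5' Gapdh probe set was 2.10 to 4.46 on 7 arrays and 7.35 on DNCB array 3. The skin identity of the samples was visible in the epidermal list, of which 19 of 20 genes passed the filter. Defining stress keratins were high under DNCB, and Krt6b, a keratin of wounded epidermis, averaged 13.37 in DNCB+HY209 and 13.76 in DNCB, against 5.06 in sham. In whole skin, fewer cells of a type and less RNA per cell cannot be told apart.

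No member passed the threshold of an adjusted p of 0.05 in any of the 3 comparisons (limma over 12420 genes). For DNCB against sham this was 0 of 6 members, beside 1.83% of all genes. For DNCB+HY209 against DNCB it was 0 of 6 beside 0% of all genes. There 161 of 12420 genes had an unadjusted limma p under 0.05, a smaller share than the 0.05 that no difference would give. For DNCB+HY209 against sham it was 0 of 6 beside 0.403%. What the data do show is the level of each transcript on each array, which differed in direction from gene to gene, as the plot of log2 signals by array shows.

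**Figure D1:**
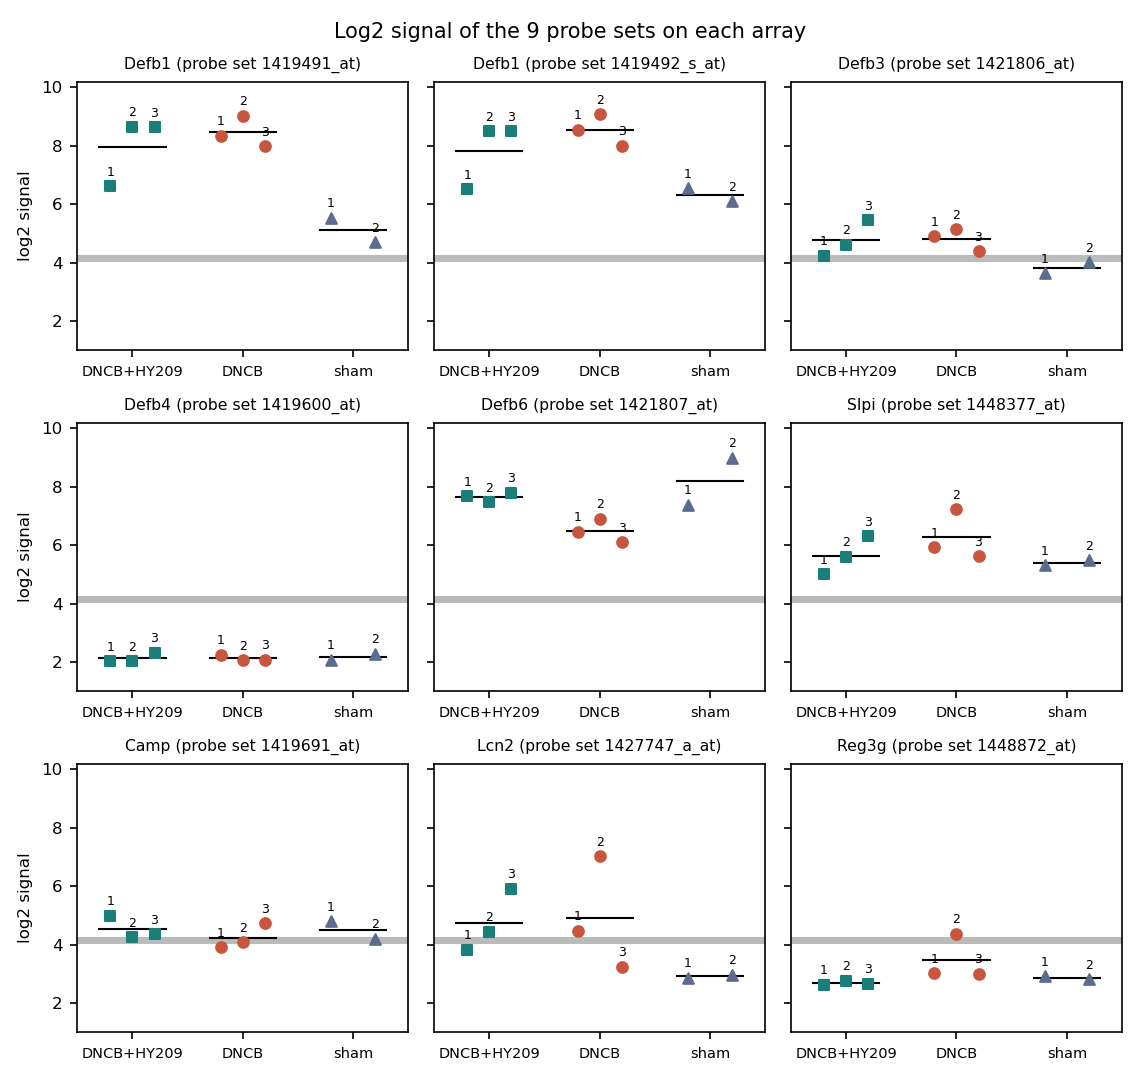
Log2 signal (vertical axis) of each of the 9 probe sets on each of the 8 arrays, with the groups DNCB+HY209, DNCB and sham from left to right. Points are single arrays with their replicate number, black lines are group means, and the grey band spans the array medians (4.07 to 4.22). All 3 DNCB arrays lay above both sham arrays for Defb1, Defb6 was dimmest on the 3 DNCB arrays, and Defb4 lay below the array median on all 8.

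The beta-defensins are disulfide-bonded peptides that act on bacterial membranes and also attract immune cells. In mice the 4 genes lie on chromosome 8. In the RefSeq order Defb4, Defb6 and Defb3 are near neighbours, with 1 annotated gene between Defb4 and Defb6 and 2 between Defb6 and Defb3 (Defb46 and Defb5). Defb1 lies apart, with 96 annotated genes between it and Defb3, 42 of them with defensin names.

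Defb6 and Defb3 are shown here at the sequence level because these neighbours resemble each other before their starts, while their differences between DNCB and sham, neither past the threshold, had opposite signs. The runs below are from RefSeq on build GRCm38.p6, plus strand, 5' to 3'. Capitals mark bases that differ from the other gene or have no partner in the alignment of both. The Defb3 run is chr8:19293111-19293345, which ends at base -16 from the annotated start, and the Defb6 run is chr8:19225251-19225477, which ends at base -1.
Defb3: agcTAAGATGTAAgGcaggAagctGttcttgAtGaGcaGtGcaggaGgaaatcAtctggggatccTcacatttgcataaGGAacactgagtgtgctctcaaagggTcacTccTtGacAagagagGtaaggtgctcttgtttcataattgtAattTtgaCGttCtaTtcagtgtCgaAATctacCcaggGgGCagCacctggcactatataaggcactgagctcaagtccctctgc
Defb6: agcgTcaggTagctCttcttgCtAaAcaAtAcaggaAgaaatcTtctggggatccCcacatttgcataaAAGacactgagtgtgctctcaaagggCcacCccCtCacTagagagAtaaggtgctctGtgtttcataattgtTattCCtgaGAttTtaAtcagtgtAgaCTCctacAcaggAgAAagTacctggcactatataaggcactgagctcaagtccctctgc
Over 237 aligned columns the runs shared 190 identical bases, differed at 35 and left 12 without a partner, which is 80.2% identity. The longest stretch without a difference was 40 bases, from -55 to -16 relative to the Defb3 start. Identity in windows of 25 columns was 48% at the far end and 100% nearest the start, as the plot of identity along the alignment shows. It did not rise steadily, with 96% from -125 to -102 and 64% from -77 to -53. Aligned end to end over 250 bases, Defb3 and Defb6 shared 72.5%, against 40.7% to 47.4% for the 14 other pairs among the 6 members with a sequence (Defb3, Defb6, Slpi, Camp, Lcn2 and Reg3g).

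**Figure D2:**
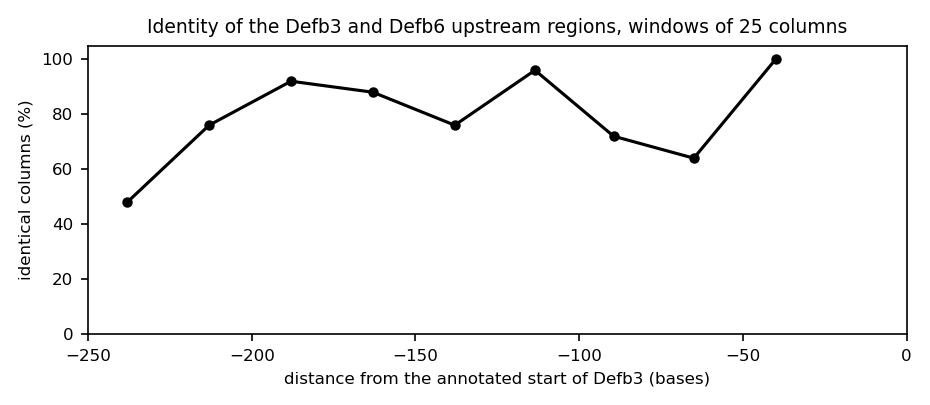
Percent identity (vertical axis) between the sequences before Defb3 and Defb6 in successive windows of 25 aligned columns, against the position relative to the Defb3 start (horizontal axis, bases). Identity was 48% in the farthest window and 100% in the nearest, with 96% (-125 to -102) and 64% (-77 to -53) between them.

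Short motifs were searched on both strands of the 250 bases before each of these 6 genes. The TATA-like word TATATAA was found before Defb3 (from base -46) and Defb6 (from base -31) and before none of the other 4, and 3.04% of 32851 mouse promoters of that length hold it. The C/EBP half-site pair TTGCNNAA occurred before Defb3, Slpi and Lcn2 once each and before Defb6 at 2 places, with 9.56% of promoters holding it. An NF-kB consensus occurred at 1 place each before Defb6 (from base -180) and Reg3g (from base -123), with 7.25% of promoters holding it, and the AP-1 word TGANTCA occurred before 0 of the 6, with 6.75%. These are matches of letters in a window and describe no binding.

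Defb6, a beta-defensin first described in mouse skeletal muscle, was lowest under DNCB with vehicle. Its log2 signal was 7.68, 7.47 and 7.80 in DNCB+HY209 skin, 6.47, 6.91 and 6.11 in DNCB skin and 7.39 and 9.0 in sham skin. All 3 DNCB arrays lay below all other arrays, and the DNCB+HY209 arrays lay within the sham range.

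Between DNCB and sham the Defb6 means were 6.50 ± 0.40 (SD, n = 3) and 8.20 ± 1.14 (SD, n = 2). The log2 difference was -1.70 (SE 0.44, 95% interval -2.69 to -0.71), a ratio of 0.308, with a limma adjusted p = 0.109. Its size rested on the sham arrays: it was -0.89 without sham array 2 and -2.51 without sham array 1, each from a fit with a single sham array. Under HY209 gel against vehicle the means were 7.65 ± 0.17 in DNCB+HY209 and 6.50 ± 0.40 in DNCB (SD, n = 3 each). The log2 difference was 1.15 (SE 0.39, interval 0.27 to 2.04), 2.22-fold, with an unadjusted p = 0.0165 and a limma adjusted p = 1. By p it ranked 30 of 12420 genes in that comparison, in which the test called 0. It was the only tested member whose DNCB+HY209 and DNCB arrays did not overlap (1 of 6), beside 2.83% of all genes not overlapping in the higher direction and 2.17% in the lower. The difference between DNCB+HY209 and sham was -0.55 (SE 0.44, interval -1.54 to 0.44; limma adjusted p = 0.474) and turned to 0.26 without sham array 2.

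Skeletal muscle RNA also varied between these samples. The summed linear signal of 20 muscle markers was 44400, 49600 and 47000 in DNCB+HY209, 61000, 46100 and 20400 in DNCB and 12200 and 43000 in sham. Within DNCB, Defb6 had a log2 signal of 6.47 on array 1, where the muscle sum was highest. It had 6.91 on array 2 and 6.11 on array 3, where the muscle sum was lowest. The 8 sebaceous gland markers summed to 4170, 2680 and 4050 in DNCB+HY209, 3180, 2950 and 3200 in DNCB and 3770 and 3430 in sham. The part of either in the Defb6 values was not tested.

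Defb3, a beta-defensin of mice known to be induced by bacterial infection, was dim in all groups. Its signal was 4.24, 4.62 and 5.46 in DNCB+HY209, 4.91, 5.14 and 4.40 in DNCB and 3.65 and 4.01 in sham. Both sham arrays lay below their array median, and all 6 DNCB-treated arrays lay above it and above both sham arrays. The filter was therefore passed through the treated arrays alone.

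The DNCB mean of Defb3 was 4.82 ± 0.38 (SD, n = 3), against 3.83 ± 0.26 (SD, n = 2) in sham, a log2 difference of 0.99 (SE 0.36, 95% interval 0.17 to 1.81; unadjusted p = 0.0228, limma adjusted p = 0.228). With HY209 the mean was 4.78 ± 0.62 (SD, n = 3), and the difference from sham was 0.95 (SE 0.36, interval 0.13 to 1.77; limma adjusted p = 0.22). The difference between DNCB+HY209 and DNCB was -0.04 with an interval from -0.78 to 0.69 and adjusted p = 1 by limma. Its sign turned with single arrays left out.

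Defb1 encodes the beta-defensin that epithelia make constantly. Its mean signal was highest under DNCB, although the DNCB and DNCB+HY209 arrays overlapped. The probe set used for its test, 1419492_s_at, had signals of 6.51, 8.50 and 8.49 in DNCB+HY209, 8.55, 9.09 and 8.01 in DNCB and 6.54 and 6.11 in sham. The second, 1419491_at, had 6.61, 8.66 and 8.64 in DNCB+HY209, 8.35, 9.03 and 7.99 in DNCB and 5.54 and 4.70 in sham. Both placed the 3 DNCB arrays above both sham arrays. They differed on DNCB+HY209 array 1, which lay between the sham arrays by the first and above both by the second.

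The first minus the second ran from -0.17 to 0.20 log2 units on the DNCB-treated arrays, against 1.00 and 1.41 on the sham arrays. The DNCB mean by the first was 8.55 ± 0.54 (SD, n = 3), against 6.32 ± 0.30 (SD, n = 2) in sham. The log2 difference was 2.23 (SE 0.58, 95% interval 0.91 to 3.55), 4.69-fold, with an unadjusted p = 0.00415 and a limma adjusted p = 0.114. By the second, in a fit of all 20644 probe sets, it was 3.34 (SE 0.61, interval 1.96 to 4.72), 10.1-fold, with a limma adjusted p = 0.0427, 1 of the 2 Defb1 probe sets called beside 1.12% of all probe sets. In that fit the first probe set had an adjusted p = 0.128. Whether DNCB skin differed from sham past the threshold thus depended on the probe set, while both had the same direction.

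Defb1 averaged 7.83 ± 1.14 in DNCB+HY209 and 8.55 ± 0.54 in DNCB (SD, n = 3 each), a log2 difference of -0.72 (SE 0.52, interval -1.90 to 0.46; limma adjusted p = 1), with overlapping groups. By the second probe set the difference was -0.49 (SE 0.55, interval -1.73 to 0.75), and only DNCB array 2 lay above DNCB+HY209 arrays 2 and 3. By the first, DNCB+HY209 array 1 decided the value, which was -0.06 without it. The DNCB+HY209 minus sham difference was 1.51 (SE 0.58, interval 0.19 to 2.83; limma adjusted p = 0.224), and without the same array it was 2.17 with an adjusted p = 0.0252. By the second probe set it was 2.85 (SE 0.61, 7.21-fold; limma adjusted p = 0.113), without overlap.

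DNCB+HY209 array 1 stood apart from its group in skin cell markers as well. The summed linear signal of 14 stress keratinocyte markers was 18000 on it, against 45000 and 52700 on the other DNCB+HY209 arrays, 45700, 64900 and 36000 in DNCB and 1820 and 2730 in sham. The 23 hair follicle markers summed to 14300 on it, against 2320 and 2310 on the other DNCB+HY209 arrays, 1100, 1450 and 7370 in DNCB and 22800 and 4510 in sham. The part of these lists in the Defb1 values was not tested.

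Defb4, a beta-defensin known from mouse tongue, oesophagus and airway, was among the dimmest probe sets on every array. Its signal was 2.04, 2.03 and 2.33 in DNCB+HY209, 2.26, 2.06 and 2.09 in DNCB and 2.09 and 2.29 in sham. All 8 values lay below the array median, between the percentiles 0.605 and 7.72 of their arrays, and the groups overlapped. No difference could be read from this probe set.

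Camp encodes the precursor of the only mouse cathelicidin, a peptide of neutrophil granules, mast cells and keratinocytes. Its signal was 4.99, 4.25 and 4.35 in DNCB+HY209, 3.92, 4.09 and 4.73 in DNCB and 4.80 and 4.21 in sham. The groups overlapped in every comparison, and DNCB array 1 and sham array 2 lay below their medians. It had the narrowest range of the tested members, 1.07 log2 units over the 8 arrays.

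Camp differed by -0.26 between DNCB and sham (SE 0.32, 95% interval -0.99 to 0.48; limma adjusted p = 0.674), by 0.28 between DNCB+HY209 and DNCB (SE 0.29, interval -0.37 to 0.94; adjusted p = 1) and by 0.02 between DNCB+HY209 and sham (SE 0.32, interval -0.71 to 0.76; adjusted p = 0.97). The arrays highest in Camp were DNCB+HY209 array 1, sham array 1 and DNCB array 3. The same 3 arrays were highest in hair follicle markers, with a mean log2 signal of 8.30, 9.17 and 7.25, against 5.34 to 6.54 on the other 5. These 3 arrays also had the highest linear ratio of the 3' to the 5' Gapdh probe set. It was 3.24, 4.46 and 7.35 on them, against 2.10 to 2.81 on the other 5. The part of hair follicle content or of RNA quality in the Camp values was not tested.

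Slpi encodes a whey acidic protein family inhibitor of neutrophil elastase and cathepsin G that also kills bacteria. Its signal was 5.01, 5.61 and 6.31 in DNCB+HY209, 5.94, 7.24 and 5.63 in DNCB and 5.32 and 5.48 in sham. The DNCB arrays lay above both sham arrays, and the DNCB+HY209 arrays overlapped both other groups.

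The Slpi mean was 6.27 ± 0.85 (SD, n = 3) in DNCB, against 5.40 ± 0.11 (SD, n = 2) in sham, a log2 difference of 0.87 (SE 0.49, 95% interval -0.25 to 1.99; limma adjusted p = 0.386). It was 0.39 without DNCB array 2. With HY209 the mean was 5.64 ± 0.65 (SD, n = 3), which differed from DNCB by -0.63 (SE 0.44, interval -1.63 to 0.37; adjusted p = 1) and from sham by 0.24 (SE 0.49, interval -0.87 to 1.36; adjusted p = 0.782), by limma. Leaving out DNCB array 2 gave a difference from DNCB of -0.14, and leaving out single DNCB+HY209 arrays gave -0.31 (array 1) to -0.96 (array 3). None of these passed the threshold.

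Lcn2 encodes lipocalin 2, which binds bacterial siderophores and so withholds iron, and it varied most of all members. Its signal was 3.83, 4.44 and 5.91 in DNCB+HY209, 4.48, 7.02 and 3.25 in DNCB and 2.87 and 2.98 in sham. Its range over the arrays was 4.15 log2 units, and 4 arrays lay above their median: DNCB+HY209 arrays 2 and 3 and DNCB arrays 1 and 2. Both sham arrays lay below all 6 DNCB-treated arrays. As for Defb3, the filter was passed through treated arrays alone.

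The Lcn2 mean was 4.92 ± 1.93 (SD, n = 3) in DNCB, against 2.92 ± 0.07 (SD, n = 2) in sham. The log2 difference of 1.99 (SE 0.96, 95% interval -0.19 to 4.17; limma adjusted p = 0.329) did not pass, and it was 0.94 without DNCB array 2. The DNCB+HY209 mean of 4.73 ± 1.07 (SD, n = 3) differed from DNCB by -0.19 (SE 0.86, interval -2.14 to 1.76; adjusted p = 1) and from sham by 1.80 (SE 0.96, interval -0.38 to 3.98; adjusted p = 0.319), by limma. The difference from DNCB turned to 0.86 without DNCB array 2 and to 0.26 without DNCB+HY209 array 1.

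The arrays highest in Lcn2 and Slpi, DNCB array 2 and DNCB+HY209 array 3, were those with the lowest spike-in signal, 9.25 and 9.87, against 9.97 to 11.62 on the other arrays. With the spike-in signal as a covariate in the fit, the DNCB minus sham difference was 0.16 for Lcn2 (limma adjusted p = 0.968) and -0.04 for Slpi. It was 1.24 for Defb1 (adjusted p = 0.508), 0.57 for Defb3 (adjusted p = 0.796), whose 2 highest arrays were the same, -1.76 for Defb6 and, for Defb6 between DNCB+HY209 and DNCB, 1.15. Both sham arrays had a higher spike-in signal (10.99 and 11.62) than any DNCB-treated array (9.25 to 10.89). The covariate thus follows the groups in part and can take up some of a difference from sham. These values therefore do not separate array from treatment. The plot of members beside array measures shows the spike-in signal against Lcn2 and Slpi, and the hair follicle level against Camp and Defb6.

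**Figure D3:**
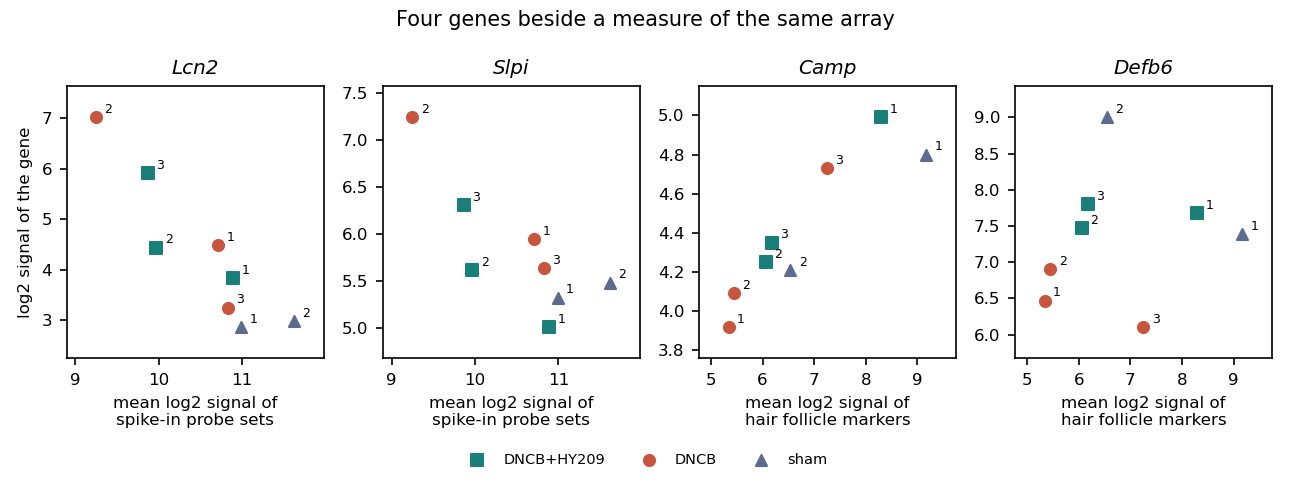
Log2 signal of Lcn2 and Slpi against the mean log2 signal of the spike-in probe sets, and of Camp and Defb6 against the mean log2 signal of 23 hair follicle markers, with 1 numbered point per array. DNCB array 2 had the lowest spike-in signal (9.25) and the highest Lcn2 (7.02) and Slpi (7.24), and the 3 arrays highest in hair follicle markers were highest in Camp.

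Neutrophils are a known source of Lcn2 and Camp protein. With members left out, 24 genes of the neutrophil list were on the array and 15 passed the filter. Their summed linear signal was 704, 1840 and 2790 in DNCB+HY209, 3310, 4900 and 1540 in DNCB and 407 and 442 in sham, with DNCB array 2 highest as for Lcn2. The other 9 genes, among them the granule genes Mpo, Ctsg, Ltf and Ngp, lay below the array median on all 8 arrays. On the DNCB-treated arrays the brightest of the 15 genes summed were S100a8 and S100a9, which stressed keratinocytes also make. On DNCB array 2 their log2 signals were 11.30 and 10.68, and the next brightest was Stfa2l1 with 7.27. The sum there is therefore mostly that of these 2 genes and no measure of neutrophils alone. The part of neutrophil content in the Lcn2 values was not tested.

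Reg3g encodes a C-type lectin that binds the wall of Gram-positive bacteria and is known to be induced in keratinocytes by interleukin 17. Its signal was 2.63, 2.77 and 2.67 in DNCB+HY209, 3.03, 4.37 and 3.01 in DNCB and 2.92 and 2.83 in sham. Only DNCB array 2 lay above its array median, and the array was also the highest in Defb1, Slpi and Lcn2. Differences were 0.60 between DNCB and sham, -0.78 between DNCB+HY209 and DNCB and -0.19 between DNCB+HY209 and sham. The groups did not overlap in any of these, but all values except 1 were below the median, so no change could be read from them.

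Set side by side, the members had no common direction. Between DNCB and sham, 4 of 6 tested members had a positive difference and 2 a negative one, with a median log2 difference of 0.93 beside 0.15 for all genes. The groups did not overlap in the higher direction for 4 members (Defb1, Defb3, Slpi and Lcn2), beside 23.3% of all genes, and in the lower direction for 1 (Defb6), beside 11.2%. Defb3 and Lcn2 passed the filter only through the group in which they were high, so these counts support nothing about the members.

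With HY209 against DNCB alone, 2 members were positive (Defb6 and Camp) and 4 negative, with a median of -0.12 beside 0.03 for all genes. Against sham, 5 DNCB+HY209 differences were positive and 1 negative (Defb6), with a median of 0.60 beside 0.20. The groups did not overlap in the higher direction for 2 members (Defb3 and Lcn2), beside 29.1% of all genes, and in the lower direction for 0, beside 12.2%. Both of these members passed the filter through treated arrays alone, so this count too supports nothing about the members. The 3 comparisons share their groups' arrays and are not independent.

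**Figure D4:**
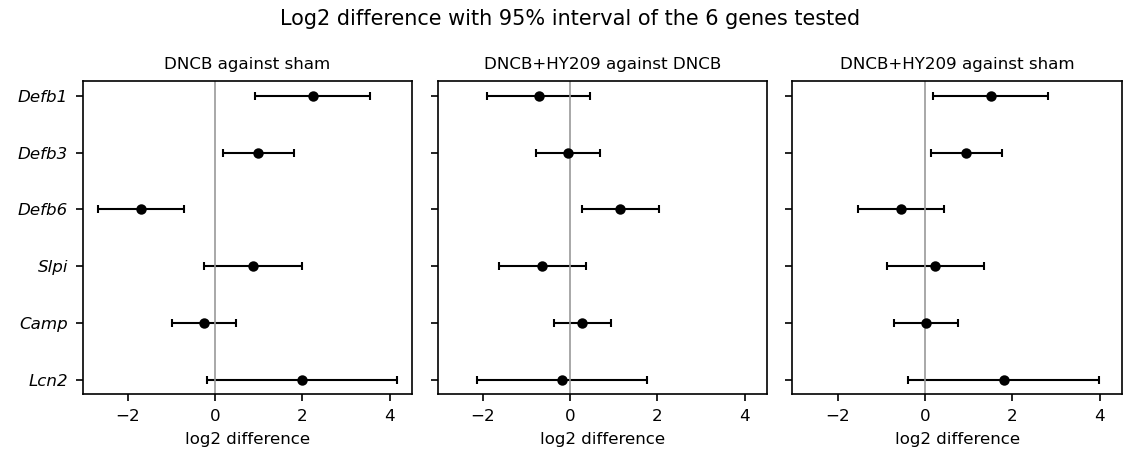
Log2 difference with its 95% interval (horizontal axis) of the 6 tested members in the 3 comparisons. For DNCB against sham the intervals of Defb1 (0.91 to 3.55), Defb3 (0.17 to 1.81) and Defb6 (-2.69 to -0.71) did not cross 0, and for DNCB+HY209 against DNCB that of Defb6 (0.27 to 2.04) did not. In the third panel, DNCB+HY209 against sham, those of Defb1 (0.19 to 2.83) and Defb3 (0.13 to 1.77) did not. No adjusted p passed the threshold.

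The genes most like each member over the 8 arrays were found by Pearson correlation among the 12420 genes, as a description. Arrays share their group and their quality, and the best of so many genes is high by selection. For Defb6 these were Dynll2 (r = 0.963), Fbxo46 (0.954) and Extl2 (0.95), the lowest values of any member. For Defb3 they were Htra2 (0.994), Ino80b (0.985) and Idh2 (0.981), and for Defb1 Abcg2 (0.987), Pxdc1 (0.985) and Urah (0.984). None of the members was among the nearest genes of another.

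For Camp the nearest genes were Krt35 (r = 0.985), Mlana (0.98) and Adamts20 (0.973). Krt35 is one of the hair follicle markers, with a signal of 11.79, 8.55 and 8.53 in DNCB+HY209, 6.25, 7.71 and 10.68 in DNCB and 11.73 and 7.85 in sham. For Slpi they were Pla2g7 (0.986), Kank1 (0.977) and Dram1 (0.972), and for Lcn2 Ppp1ca (0.994), Rhog (0.991) and Coro1c (0.987).

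Other antimicrobial proteins were read from a list of 51 genes, of which 41 were on the array and 22 passed the filter. Between DNCB and sham 2 rose, 1 fell and 19 did not pass, with a median difference of 0.04 beside 0.15 for all genes. Those that rose were S100a8 and S100a9, the subunits of calprotectin, a metal-binding protein of neutrophils and stressed keratinocytes. The one that fell was Retnla, a resistin-like molecule. It passed the filter through the sham arrays alone, the group in which it was high, so its call supports nothing about the list.

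S100a8 had a signal of 8.08, 9.88 and 10.52 in DNCB+HY209, 10.68, 11.30 and 9.66 in DNCB and 5.22 and 4.42 in sham. S100a9 had 7.24, 9.01 and 9.65 in DNCB+HY209, 10.19, 10.68 and 8.54 in DNCB and 3.32 and 4.28 in sham. Every DNCB-treated array lay above both sham arrays for both subunits, and DNCB+HY209 array 1 was the lowest treated array, as for Defb1, Slpi and Defb3.

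Between DNCB and sham S100a8 rose by 5.73 (SE 0.70; limma adjusted p = 0.012) and S100a9 by 6.01 (SE 0.78; adjusted p = 0.0147). Retnla averaged 3.83 in DNCB, below the array medians, and 5.13 in sham, and fell by 1.30 (SE 0.25; limma adjusted p = 0.0414). In DNCB+HY209 against sham S100a8 rose by 4.67 (limma adjusted p = 0.0367) and S100a9 by 4.84 (adjusted p = 0.046), 2 of 22, with a list median of -0.06 beside 0.20. S100a9 on sham array 1 lay below the array median. The DNCB calls of both subunits ended in 5 of 20 alternatives each. Both ended without sham array 1, sham array 2 or DNCB array 1 (adjusted p of 0.0527 to 0.0959) and without the pair DNCB array 2 and sham array 2 (0.196 for S100a8 and 0.176 for S100a9). The call of S100a8 also ended with the replicate number as a block (0.0535), and that of S100a9 with the spike-in covariate (0.0914). Over 20 alternatives those differences stayed between 4.48 and 6.64. The DNCB+HY209 calls ended in 10 of 20 alternatives for S100a8 and in 11 for S100a9. The call of Retnla between DNCB and sham ended in 12 of 19.

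With HY209 against DNCB 0 of these 22 genes passed, 3 were positive and 19 negative, and the median was -0.16 beside 0.03. Largest in the fit of all arrays were Hp, encoding haptoglobin (-1.42), and Reg1, a gene of the Reg3g family (-1.35), each with a limma adjusted p = 1. Hp was -2.65 without DNCB array 3 and -0.71 without DNCB array 2, and Reg1 lay below the array median on all arrays but DNCB arrays 1 and 2. The 19 genes on the array that stayed below the filter included the beta-defensins Defb2, Defb5, Defb7 and Defb8 and the lectins Reg3a and Reg3b.

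Ligands and receptors that induce the members formed a list of 30 genes, 18 of which were tested. In each comparison 0 passed, and the median was 0.54 between DNCB and sham, -0.04 between DNCB+HY209 and DNCB and 0.44 between DNCB+HY209 and sham. The growth factor gene Hbegf differed by 2.11 (limma adjusted p = 0.109) and Il6 by 1.6 (adjusted p = 0.385) between DNCB and sham. In DNCB+HY209 against sham Hbegf differed by 1.83 (adjusted p = 0.167) and the growth factor gene Tgfa by 1.22 (adjusted p = 0.209). Between DNCB+HY209 and DNCB Il1b differed by -0.79 and Il6 by -0.57, each with a limma adjusted p = 1. Il6 lay above the array median only on DNCB array 2 and DNCB+HY209 arrays 2 and 3. The interleukin 17 gene Il17a lay below the filter.

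Transcriptional regulators of these genes, 18 tested of 20 listed, gave 0 calls in each comparison, with medians of 0.58 between DNCB and sham, -0.06 between DNCB+HY209 and DNCB and 0.65 between DNCB+HY209 and sham. Fosl1, a member of the AP-1 family, differed by 2.10 (limma adjusted p = 0.159) and Hif1a, an oxygen-regulated factor, by 1.82 (adjusted p = 0.062) between DNCB and sham. For DNCB+HY209 against sham Fosl1 differed by 2.05 (adjusted p = 0.176) and the stress factor Atf3 by -1.82 (adjusted p = 0.227). Both sham signals of Fosl1 lay below the array median. With HY209 against DNCB Cebpd, a C/EBP factor, differed by -0.50 and Hif1a by -0.40, each with a limma adjusted p = 1.

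Type 2 cytokines and receptors had 7 tested of 15 listed, and Il4 and Il13 lay below the filter. Between DNCB and sham 1 rose, with a list median of 1.38 beside 0.15. It was Il13ra1, a receptor chain for interleukin 13, which averaged 7.45 in DNCB and 5.02 in sham and rose by 2.43 (SE 0.49; limma adjusted p = 0.0457). Its probe sets differed, and their mean gave 1.64 (adjusted p = 0.277). The call ended in 13 of 20 alternatives.

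With HY209, 0 of these 7 passed against DNCB, with a median of -0.22, and Il33 differed by -1.22 and Tslp, both epithelial cytokines, by -0.50, each with a limma adjusted p = 1. Against sham 0 passed, with a median of 0.97, and Il13ra1 differed by 2.21 (adjusted p = 0.0971) and Tslp by 1.99 (adjusted p = 0.202). Tslp lay below the array median on both sham arrays and on DNCB+HY209 array 1.

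Proteases, receptors and partners of the members had 16 tested of 24 listed. Between DNCB and sham 1 rose, with a list median of 0.27 beside 0.15. It was Grn, encoding progranulin, which SLPI binds and shields from elastase. It averaged 10.11 in DNCB and 8.83 in sham and rose by 1.28 (SE 0.24; limma adjusted p = 0.0371), a call that ended in 11 of 20 alternatives.

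Between DNCB+HY209 and DNCB 0 of 16 passed, with a median of -0.27, and the formyl peptide receptor gene Fpr2 differed by -1.06 and the gelatinase gene Mmp9 by -0.91, each with a limma adjusted p = 1. Fpr2 on DNCB+HY209 array 2 and Mmp9 on DNCB+HY209 array 1 lay below the array median. Between DNCB+HY209 and sham 0 passed, with a median of -0.05. The kallikrein genes Klk8 and Klk6, which encode skin serine proteases, differed by 1.6 (adjusted p = 0.377) and 1.41 (adjusted p = 0.415). The plot of related lists shows each tested gene in the comparisons of DNCB+HY209 with DNCB and of DNCB with sham.

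**Figure D5:**
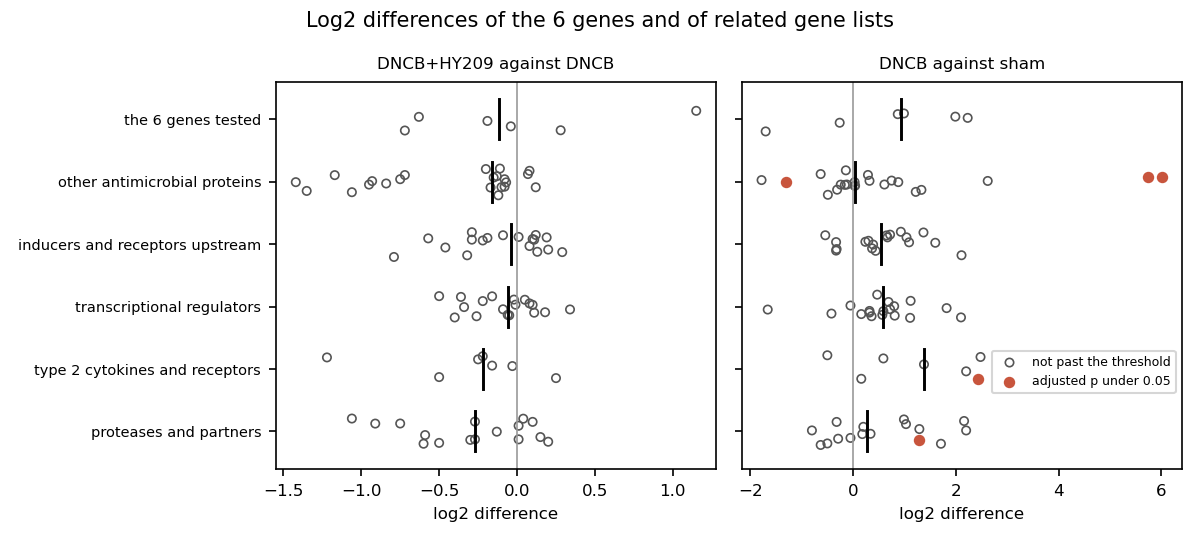
Log2 differences (horizontal axis) of the tested genes of each list, for DNCB+HY209 against DNCB on the left and DNCB against sham on the right. Points are genes, filled where the adjusted p was under 0.05, and black lines are list medians. S100a8 and S100a9 stand at 5.73 and 6.01 on the right, and no gene is filled on the left.

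Cell type markers moved between the groups beside the members. Of 14 stress keratinocyte markers 8 rose between DNCB and sham (median 3.26) and 4 between DNCB+HY209 and sham (median 2.69). Of 23 hair follicle markers 1 fell between DNCB and sham (Krtap3-1, median of the list -1.81), 0 passed between DNCB+HY209 and DNCB (median 0.89, with 23 positive) and 0 between DNCB+HY209 and sham (median -1.14). Of 15 neutrophil markers 2 rose in each comparison with sham, S100a8 and S100a9, and the median between DNCB+HY209 and DNCB was -0.43, with 13 negative. Between DNCB+HY209 and DNCB the median was also positive for the sebaceous gland (0.34) and skeletal muscle (0.34) lists. It was negative for the macrophage (-0.51), stress keratinocyte (-0.53), interfollicular keratinocyte (-0.15) and adipocyte (-0.14) lists. With lists of both signs, a member of either sign shares it with some list in any case. The part of these cell types in the members' values was not tested.

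The remaining marker lists had few calls. Of 14 macrophage markers 1 rose between DNCB and sham (Ms4a7, list median 1.11). Of 19 interfollicular keratinocyte markers 2 fell (Krt77 and Krt15, list median 0.44), and Krt77 fell between DNCB+HY209 and sham (list median 0.18). Of 20 skeletal muscle markers 1 rose in each comparison with sham (Myh2), with list medians of 0.67 for DNCB and 1.23 for DNCB+HY209. In the 8 sebaceous gland and 8 adipocyte markers 0 passed in each comparison.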

How the data were processed

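The deposited values were taken as log2 signals per probe set, a scale their range shows. Total RNA was amplified from the 3' end and biotin labelled, per the labels' protocols. Affymetrix Expression Console and MAS5 appear in the submitters' processing notes, with how arrays were normalized not given in the sources used here. The labels name the 430A array, but the 45101 probe sets deposited were named through the annotation of the larger array of that generation. Of these, 64 were controls, 34945 had 1 symbol, 932 several, and 9160 were not listed. Through Entrez identifiers 99.4% matched RefSeq, and 0 symbols changed.

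A probe set was kept if it lay above its array's median on at least 2 of 8 arrays, and a gene was represented by its brightest kept probe set. All 8 arrays entered a single fit in 3 groups with limma 3.58.1 in R 4.3.3 (lmFit, eBayes with an intensity trend), two-sided, with Benjamini-Hochberg adjustment over 12420 genes and a threshold of 0.05. SE is the moderated standard error. The procedure was tested on simulated data. The number of arrays limits the precision.

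Named genes were all members, the 3 genes nearest each tested member, and from each related list up to 4 past the threshold or else the 2 largest differences. Of marker lists only defining genes were named. The members and lists were chosen with earlier results of these data known. Numbers in the titles did not pair the arrays: same-numbered DNCB+HY209 and DNCB arrays deviated with correlations of 0.12, 0.28 and -0.60. Promoters were aligned with Biopython 1.88, and figures drawn with matplotlib 3.10.9.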

Additional observations from a re-analysis of the deposited data

How the results depend on the processing

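The number of members called was 0 in each comparison and changed under few of the 20 alternatives per comparison. For DNCB against sham it was 1 in a fit of only the groups compared (Defb1, adjusted p = 0.0328) and 0 to 1 without single arrays, 1 without sham array 1 (Defb6) and 1 without DNCB+HY209 array 1 (Defb1, adjusted p = 0.0125). For DNCB+HY209 against sham it was 0 to 1 without single arrays, 1 without DNCB+HY209 array 1 (Defb1). For DNCB+HY209 against DNCB it was 0 throughout, and Defb6 differed by 0.96 to 1.36 with adjusted p of 0.861 to 1.

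The count of all genes called for DNCB against sham, 227, was 35 with the replicate number as a block, 16 with the spike-in signal as a covariate, 7 without DNCB array 2 and sham array 2, a pair chosen after seeing the data, and 15 to 352 without single arrays (40 and 15 without sham array 1 or 2, 31 and 30 without DNCB array 1 or 2, 352 and 66 without DNCB+HY209 array 1 or 2). For DNCB+HY209 against sham, 50, it was 97 after quantile normalization, 24 with probe sets averaged per gene, 16 with only the groups compared, 12 with the block, 10 with the spike-in covariate, 8 without that pair and 9 to 287 without single arrays (9 without sham array 1, sham array 2 or DNCB+HY209 array 2, 18 and 32 without DNCB array 1 or 3, 12 and 287 without DNCB+HY209 array 3 or 1). The causes were not tested, apart from the smaller samples. The numbers do not pair the arrays, so the block is only a setting.

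Of 357 member differences under alternatives, 334 kept direction and call, 4 newly passed and 19 changed sign, none of them past the threshold. With the block Camp in DNCB+HY209 against sham was -0.05. With the spike-in covariate Slpi was -0.04 in DNCB and -0.69 in DNCB+HY209 against sham, Lcn2 -0.07 in DNCB+HY209 against sham, Il6 -0.30 in DNCB against sham and Klk8 -0.04 in DNCB+HY209 against sham. Without DNCB array 2 and sham array 2, Camp was -0.27 and Defb6 0.26 in DNCB+HY209 against sham, and Defb3 was 0.12, Lcn2 0.86 and Il6 0.45 in DNCB+HY209 against DNCB. Without single arrays Camp ran from -0.55 to 0.03 in DNCB against sham. Against sham, DNCB+HY209 ran from -0.27 to 0.32 for Camp, -0.09 to 0.56 for Slpi and -1.35 to 0.26 for Defb6. DNCB+HY209 against DNCB ran from -0.39 to 0.22 for Defb3, -1.02 to 0.86 for Lcn2, -1.25 to 0.45 for Il6, -0.65 to 0.07 for Hif1a and -1.22 to 0.18 for Tslp. Of 576 differences of other named genes, 496 kept direction and call, 67 lost their call, 7 newly passed and 6 changed sign. Centring the arrays on their medians put the median of all genes at 0.21, 0.05 and 0.27 for DNCB against sham, DNCB+HY209 against DNCB and DNCB+HY209 against sham, and quantile normalization put it at 0, 0.01 and 0.02. Signal near the array median limits Defb3, Camp and Lcn2 most.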
